A study of Homo sapiens with 12 samples.

Results

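The subject is the histone genes measured in human induced neurons: 38 transcripts, 1 per gene, out of 19972 in the deposited count table. They were taken by gene name, from the names that the authors' deposited table of footprint-to-RNA ratios pairs with 10872 of the transcripts. Of the 38, 28 are replication-dependent genes (2 of linker histone H1, 6 of H2A, 8 of H2B, 3 of H3 and 9 of H4), 9 are replication-independent variant genes, and 1, H2AX, is known to give RNA of both forms. Another 9100 transcripts carry no name there, so further histone genes may be among them and were not analysed here.

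The neurons were made from H1, a human embryonic stem cell line, through overexpression of the transcription factor Ngn2, which turns stem cells into neurons, and were at day in vitro 14. They carried either wild-type LLPH on both alleles (wt/wt) or an allele that the labels call Nterm on both (Nterm/Nterm). Both genotypes received doxycycline and cytosine arabinoside, a nucleoside analogue that blocks DNA synthesis, grew without added glia, and were harvested in cycloheximide, which halts ribosomes. Each genotype has 3 RNA-seq libraries of polyA RNA and 3 Ribo-seq libraries, which count ribosome footprints, the mRNA pieces that ribosomes shield from RNase. What Nterm changes in LLPH, how many clones were used and whether replicates were separate cultures are not stated in the labels. The p-values therefore cover no more than the spread among these libraries.

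Library totals were 18944427 to 25089790 counts for RNA and 12652833 to 16356419 for footprints. The genotype tag of the 6 Ribo-seq samples contradicts their titles. The titles were followed, as the column names of the count table also do, and results under the tag are given with the processing alternatives. LLPH had 676, 627 and 687 (wt/wt) and 611, 603 and 630 (Nterm/Nterm) RNA counts and 88, 135 and 98 (wt/wt) and 39, 22 and 36 (Nterm/Nterm) footprints, so its footprints were lower in every library titled Nterm/Nterm (log2 change -1.60 ± 0.19 SE, adjusted p = 1.77e-05 by edgeR's quasi-likelihood test). All 16 neuron markers looked for had named transcripts, with summed RNA of 18407 to 19751 CPM (counts scaled by library size) in wt/wt. Of 12 glia markers only SLC1A3 did, and markers of mesenchymal cells and neural progenitors were present too, with values given beside the genotype comparison.

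Histones package DNA: H2A, H2B, H3 and H4 form the nucleosome core and H1 binds the linker DNA between nucleosomes. The replication-dependent genes lie in clusters, have no introns and are transcribed in S phase, and their mRNAs end in a stem-loop, bound by the protein SLBP, in place of a polyA tail. Some of these genes are also known to give polyadenylated RNA, mainly in differentiated cells. The variant genes are transcribed outside S phase as well and give ordinary polyadenylated mRNAs, so they supply non-dividing cells such as neurons. Since the RNA libraries were made from polyA RNA, the denominator of every footprint-to-RNA ratio below is polyadenylated RNA only.

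The classes differed widely in that ratio. Summed over the 28 replication-dependent genes, footprints in wt/wt were 1584, 1493 and 1618 CPM per library, and RNA was 54.8, 51.8 and 50.2 CPM. The 9 variant genes had 1705, 1569 and 1683 CPM of footprints and 2354, 2324 and 2399 CPM of RNA. The classes thus took similar parts of the footprints, while the replication-dependent genes took far less of the RNA than the variants. From the means, 1565 ± 64.4 CPM (SD, n = 3) of footprints over 52.3 ± 2.36 CPM of RNA, the replication-dependent genes stood at a ratio of 29.9 and the variants at 0.7005. In Nterm/Nterm the ratios were 30.7 and 0.755. H2BC21 and H2BC12 supplied 28.2% and 25.5% of the replication-dependent RNA counts, and without these genes the class ratio was 65.5 in wt/wt and 63.5 in Nterm/Nterm.

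**Figure D1:**
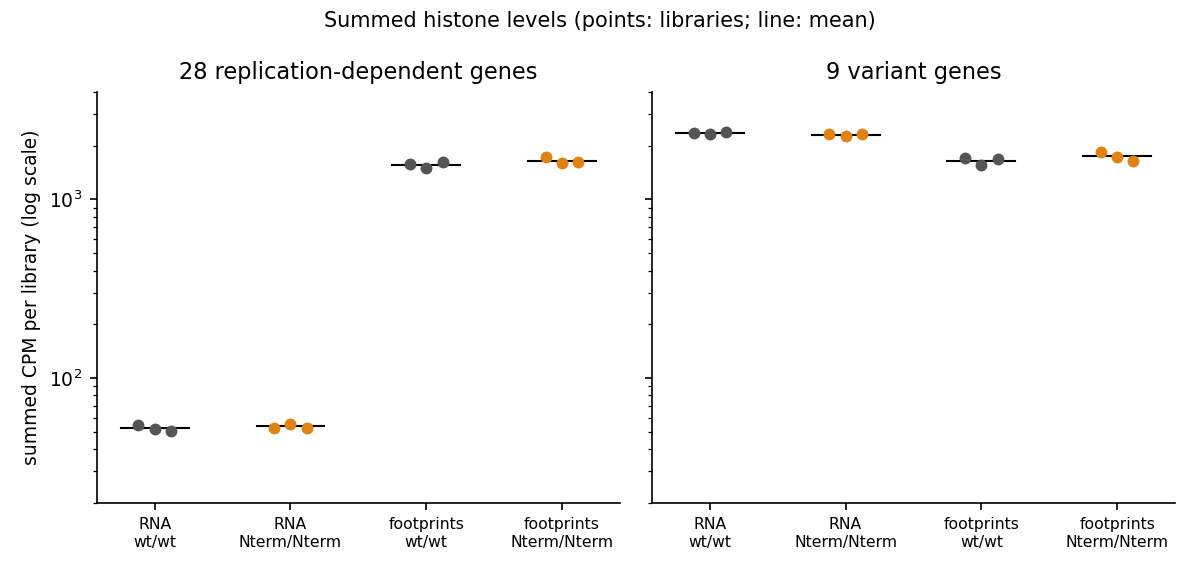
Summed CPM (y axis, log scale) of the 28 replication-dependent genes (left) and the 9 variant genes (right) in each RNA and footprint library, by genotype; points are libraries and lines are means of 3. Replication-dependent RNA lies between 50.2 and 55.4 CPM in all 6 RNA libraries, and the footprints of both classes lie between 1493 and 1848 CPM.

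Gene by gene, footprints were compared with RNA in 1 edgeR fit over all 12 libraries, and a gene was called where its adjusted p was under 0.05 and its ratio more than 2-fold from the median of all 14786 transcripts tested. Of those, 29.2% were called in wt/wt, 9.83% higher and 19.3% lower in footprints. Among the replication-dependent genes 26 of 28 were called higher, 1 lower (H2BC12) and 1 not called (H2BC21). None of the 9 variants was called higher, and 1 was called lower (H3-3B); H2AX was not called. In Nterm/Nterm, where 28.9% of all transcripts were called (9.96% higher, 18.9% lower), the same counts held in each class. With RNA counts under 3 over a genotype set to 3, the median ratio in wt/wt was 262 for the replication-dependent genes and 1.29 for the variants, beside 1.11 over all transcripts.

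The authors' table holds no transcript with a total under 1016 counts over the 12 libraries. A gene with little RNA could therefore enter it only with many footprints. This applies to 26 of the 28 replication-dependent genes, those whose RNA counts alone fall below that total, and these are the 26 that were called higher. Of 225 other named transcripts with as little RNA, 64% were called higher in wt/wt and 63.1% in Nterm/Nterm, so the count of calls is partly set by which genes have names. The size of the ratio is bound by the same filter, since a named gene with few RNA counts must have many footprints. With the same floor on RNA counts, 75 of 14786 transcripts had a ratio above 10 in wt/wt: 24 replication-dependent histone genes, 45 without a name and 6 other named genes. Above 100 there were 30, of which 19 were replication-dependent histone genes.

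**Figure D2:**
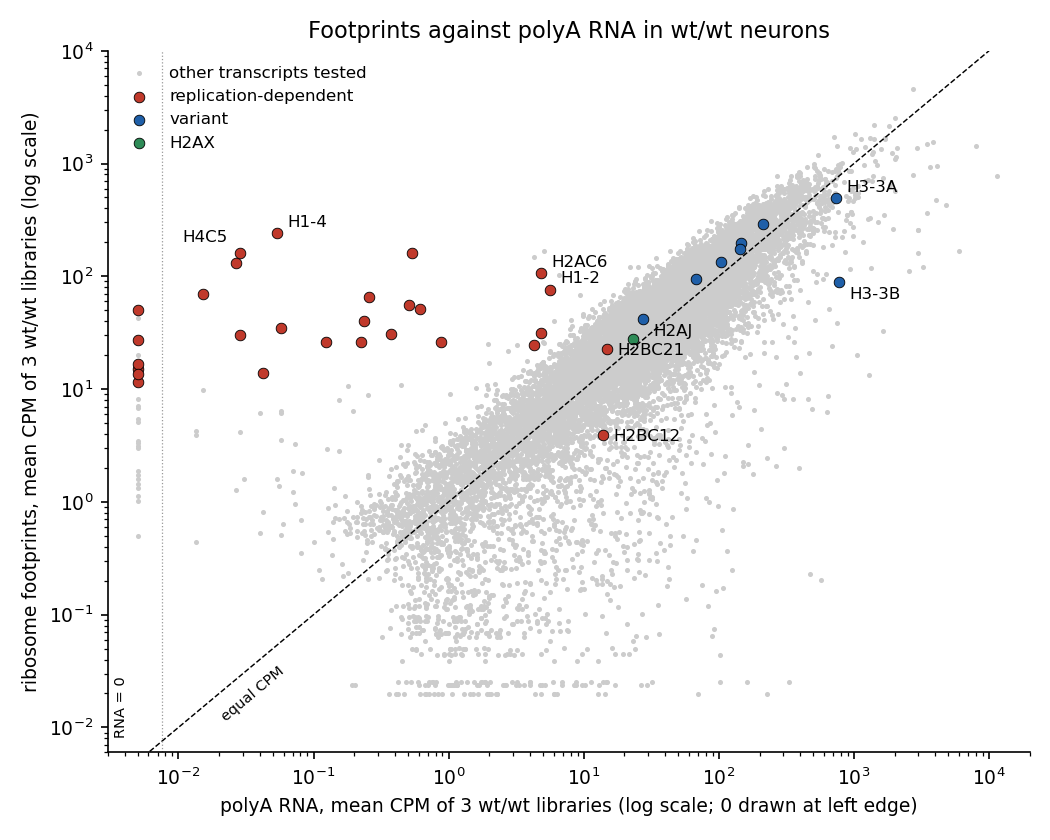
Mean footprint CPM (y axis) against mean polyA RNA CPM (x axis) of 3 libraries each in wt/wt, both on log scales, for every transcript tested; histone genes are coloured, the dashed line marks equal CPM, transcripts with no RNA count sit left of the dotted line, and 216 transcripts with no footprint are not drawn. Most replication-dependent genes lie far above the line, 6 of them with no RNA count in wt/wt, while the variants lie in or below the main cloud.

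Linker histones held the extreme case. H1-4, an H1 subtype gene of the main cluster, had 0, 0 and 4 (wt/wt) and 0, 0 and 0 (Nterm/Nterm) RNA counts. Its footprints were 248, 233 and 246 CPM (wt/wt) and 289.8, 256 and 254 CPM (Nterm/Nterm), the most of any replication-dependent gene and 15.8% of the class. Its ratio in wt/wt was 4329 (1690.3 to 15891); here and below the values in parentheses after a ratio are its exact (Clopper-Pearson) 95% counting interval. In Nterm/Nterm, with no RNA count, footprints were at least 4343-fold higher. This is the lower limit of the same interval, as are the fold values after "at least" below. With RNA counts under 3 over a genotype set to 3, H1-4 ranked highest of 14786 transcripts in both genotypes. Without that floor, 3 H4 genes with 1 or 2 RNA counts in wt/wt, given below, have higher ratios there. H1-2, the other replication-dependent H1 gene here, had 148, 133 and 118 (wt/wt) and 100, 100 and 104 (Nterm/Nterm) RNA counts and 80.5, 78.2 and 70.03 CPM (wt/wt) and 65.8, 58.5 and 51.7 CPM (Nterm/Nterm) of footprints. Its ratio in wt/wt was 13.7 (12.4 to 15.3), far below that of H1-4.

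Several H2A and H2B genes lie head to head and share a promoter, and 4 such pairs have both members among the 38. Their sequences between the start sites are shown because this stretch is common to both genes of a pair, while in 3 of the 4 pairs the genes differ in polyA RNA counts. They come from RefSeq, build GRCh38.p14, plus strand, with the H2B or H2A gene on the minus strand named before the gene on the plus strand. Capitals mark the octamer ATTTGCAT (ATGCAAAT on the other strand), an element known from H2B promoters, the CCAAT box (ATTGG on the other strand) and the TATA box. The TATA box was searched for with the letters TATAAA on either strand, so that in a sequence printed from the plus strand it can also appear as TTTATA.
H2BC21 and H2AC20, chr1:149886683-149886917: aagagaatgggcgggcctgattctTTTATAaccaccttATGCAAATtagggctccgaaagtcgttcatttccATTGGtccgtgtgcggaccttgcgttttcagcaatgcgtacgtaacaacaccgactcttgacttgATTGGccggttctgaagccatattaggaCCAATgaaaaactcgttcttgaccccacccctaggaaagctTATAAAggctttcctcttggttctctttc
H2AC25 and H2BC26, chr1:228457874-228458102: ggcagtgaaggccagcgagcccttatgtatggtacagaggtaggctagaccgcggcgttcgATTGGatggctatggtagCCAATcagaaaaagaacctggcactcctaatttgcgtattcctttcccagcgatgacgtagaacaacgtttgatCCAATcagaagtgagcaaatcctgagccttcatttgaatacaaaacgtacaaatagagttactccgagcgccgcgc
H2BC4 and H2AC6, chr6:26123927-26124171: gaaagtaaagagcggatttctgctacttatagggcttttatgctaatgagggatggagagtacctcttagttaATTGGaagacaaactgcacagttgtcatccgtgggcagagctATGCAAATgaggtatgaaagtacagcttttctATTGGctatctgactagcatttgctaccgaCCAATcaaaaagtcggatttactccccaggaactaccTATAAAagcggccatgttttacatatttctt
H2BC8 and H2AC8, chr6:26216689-26216920: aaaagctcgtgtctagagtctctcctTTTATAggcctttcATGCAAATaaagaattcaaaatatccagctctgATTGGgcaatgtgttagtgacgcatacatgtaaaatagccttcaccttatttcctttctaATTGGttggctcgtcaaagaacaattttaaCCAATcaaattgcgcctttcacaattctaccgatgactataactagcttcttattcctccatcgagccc

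Each stretch is 229 to 245 bases long and holds 3 CCAAT boxes; 3 of the 4 hold 1 octamer, and the stretch between H2AC25 and H2BC26 holds no exact octamer or TATAAA. In windows of 300 bases around the start (250 before, 50 after), searched on both strands for motifs of which none contains another, the octamer was found in 10 of the 25 replication-dependent genes with a RefSeq window. All 10 are H2A genes (5 of 6) or H2B genes (5 of 8), and it was found in 2.19% of all 27305 genes in the table. In 3 of the 4 pairs above, 1 octamer in the shared stretch counts for both partners, so the 10 genes do not hold 10 separate sites. Motifs of the other kinds in a shared stretch can count for both partners too. CCAAT was found in 20 of the 25 (39.7% of all genes) and TATAAA in 16 (14%). Of 8 variant genes, H3-3B held an octamer, 6 held CCAAT and 3 held TATAAA. H3C12, H4C1 and H4C3 have no entry in the table. A match is a description of letters and not a site shown to be bound.

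RNA and footprint counts of the partners were set side by side. H2BC21 and H2AC20 had 1971 and 5 RNA counts over the 6 RNA libraries, and 1853 and 2462 footprints over the 6 Ribo-seq libraries. H2AC25 and H2BC26 had 576 and 32 RNA counts and 2152 and 2243 footprints. Partners in both pairs thus had similar footprints and very different polyA RNA. For H2BC4 and H2AC6 the RNA counts were 133 and 651 and the footprints 2157 and 9381, so the gene with more RNA also had more footprints. H2BC8 and H2AC8 had 77 and 70 RNA counts with 4767 and 14412 footprints. These are counts and not levels per length, and no test was made between genes.

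**Figure D3:**
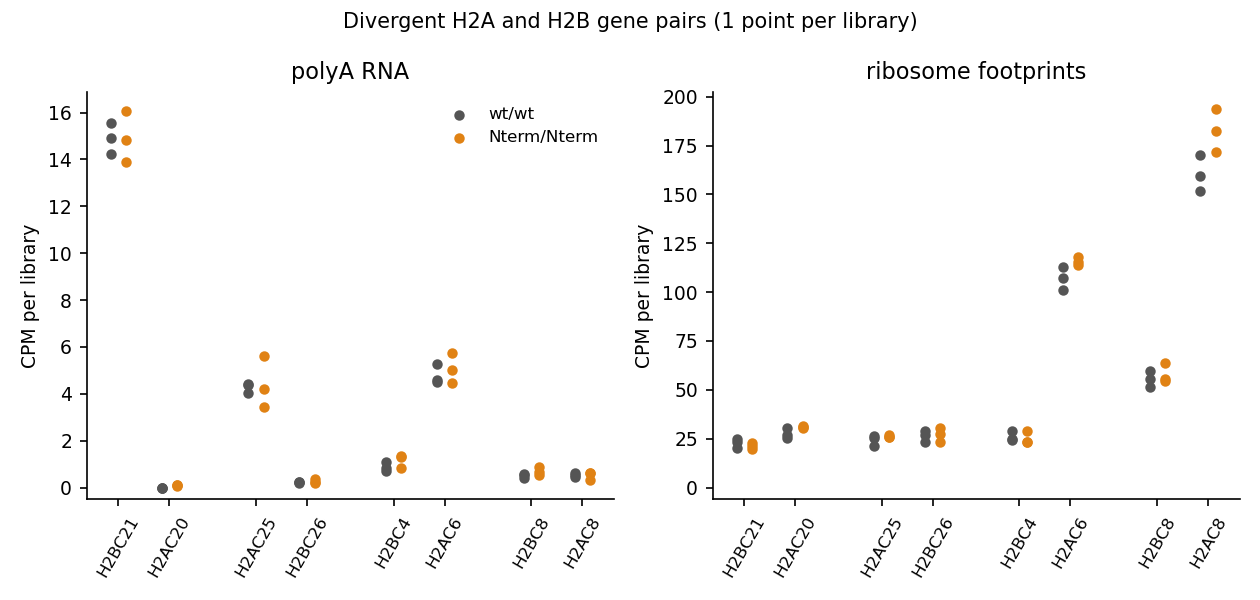
CPM in each library of the 8 genes in the 4 divergent pairs, in polyA RNA (left) and ribosome footprints (right), by genotype, on linear axes of different range; each point is 1 library. H2BC21 has the highest RNA CPM of the 8 and H2AC20 almost none, while their footprints lie close together.

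The 6 H2A genes ranged from 0 to 651 RNA counts over the 6 RNA libraries. H2AC21 had no RNA count in any of 6 libraries, with 13.9, 14.6 and 16.4 CPM (wt/wt) and 15.7, 14.5 and 15.2 CPM (Nterm/Nterm) of footprints. Its footprints were at least 290-fold higher in wt/wt and 247-fold in Nterm/Nterm. H2AC20 had 0, 0 and 0 (wt/wt) and 2, 2 and 1 (Nterm/Nterm) RNA counts and 26.8, 25.3 and 30.3 CPM (wt/wt) and 30.9, 30.7 and 31.5 CPM (Nterm/Nterm) of footprints. These were at least 530-fold higher in wt/wt and 375 (160.1 to 1156) times in Nterm/Nterm. H2AC17 had 2, 2 and 5 (wt/wt) and 0, 4 and 0 (Nterm/Nterm) RNA counts and 26.9, 24.4 and 27.8 CPM (wt/wt) and 29.9, 26.8 and 32.2 CPM (Nterm/Nterm) of footprints, a ratio of 209 (109.6 to 458) in wt/wt. These 3 genes thus had footprints in all libraries and almost no polyA RNA. H2AC8 had 13, 10 and 16 (wt/wt) and 12, 6 and 13 (Nterm/Nterm) RNA counts and the most footprints of the H2A genes, 159.7, 152 and 170.0 CPM (wt/wt) and 194, 182 and 172 CPM (Nterm/Nterm), a ratio of 294 (215 to 414). H2AC6 had 131, 100 and 113 (wt/wt) and 99, 85 and 123 (Nterm/Nterm) RNA counts and 107, 101 and 113 CPM (wt/wt) and 118, 114 and 115 CPM (Nterm/Nterm) of footprints, a ratio of 22.2 (19.9 to 24.9). H2AC25, known earlier as HIST3H2A and lying outside the main cluster, had 110, 88 and 110 (wt/wt) and 68, 80 and 120 (Nterm/Nterm) RNA counts, 21.3, 25.5 and 26.5 CPM (wt/wt) and 26.03, 26.1 and 27.05 CPM (Nterm/Nterm) of footprints and the lowest H2A ratio, 5.72 (5.03 to 6.51).

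Among the 8 H2B genes stood both replication-dependent genes that were not called higher. H2BC12 had 352, 316 and 326 (wt/wt) and 269, 286 and 231 (Nterm/Nterm) RNA counts and 5.19, 3.11 and 3.53 CPM (wt/wt) and 3.12, 4.74 and 4.08 CPM (Nterm/Nterm) of footprints, a ratio of 0.279 (0.236 to 0.328) in wt/wt and 0.306 (0.257 to 0.363) in Nterm/Nterm. It was the one replication-dependent gene with fewer footprints than RNA on the CPM scale. H2BC21 had 387, 326 and 356 (wt/wt) and 275, 283 and 344 (Nterm/Nterm) RNA counts and 24.8, 20.2 and 23.4 CPM (wt/wt) and 22.8, 21.04 and 19.9 CPM (Nterm/Nterm) of footprints, a ratio of 1.52 (1.39 to 1.65), which is in the range of the variants. H2BC5 followed with 132, 95 and 122 (wt/wt) and 128, 126 and 110 (Nterm/Nterm) RNA counts, 32.8, 28.2 and 32.7 CPM (wt/wt) and 32.1, 32.4 and 32.9 CPM (Nterm/Nterm) of footprints and a ratio of 6.37 (5.66 to 7.19). H2BC4 had 27, 15 and 21 (wt/wt) and 27, 25 and 18 (Nterm/Nterm) RNA counts and 28.99, 24.9 and 24.4 CPM (wt/wt) and 29.2, 23.1 and 23.3 CPM (Nterm/Nterm) of footprints, a ratio of 29.6 (22.9 to 38.7). The other H2B genes had at most 17 RNA counts in any library. H2BC8 had 13, 13 and 10 (wt/wt) and 17, 10 and 14 (Nterm/Nterm) RNA counts, 59.9, 51.2 and 55.7 CPM (wt/wt) and 63.5, 55.6 and 54.4 CPM (Nterm/Nterm) of footprints and a ratio of 110.1 (79.3 to 158). H2BC15 had 8, 7 and 12 (wt/wt) and 9, 10 and 6 (Nterm/Nterm) RNA counts, 30.7, 27.9 and 32.96 CPM (wt/wt) and 35.3, 30.98 and 32.8 CPM (Nterm/Nterm) of footprints and a ratio of 80.7 (55.2 to 123). H2BC26, earlier HIST3H2BB, had 6, 5 and 5 (wt/wt) and 4, 7 and 5 (Nterm/Nterm) RNA counts, 28.8, 23.2 and 26.8 CPM (wt/wt) and 30.5, 23.5 and 27.3 CPM (Nterm/Nterm) of footprints and a ratio of 117 (71.5 to 205). H2BC7, with 0, 0 and 0 (wt/wt) and 0, 0 and 2 (Nterm/Nterm) RNA counts and 12.2, 11.5 and 11.3 CPM (wt/wt) and 11.5, 12.9 and 12.7 CPM (Nterm/Nterm) of footprints, was at least 225-fold higher in wt/wt footprints. The H2B genes therefore ran from more RNA than footprints to nearly no RNA.

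All 3 H3 genes, which encode the replication-coupled core histone H3, had few polyA counts. H3C1 had 2, 2 and 0 (wt/wt) and 0, 0 and 0 (Nterm/Nterm) RNA counts and 35.9, 33.9 and 34.3 CPM (wt/wt) and 35.3, 30.8 and 33.4 CPM (Nterm/Nterm) of footprints, a ratio of 621 (242 to 2283) in wt/wt. H3C6 had 4, 5 and 8 (wt/wt) and 3, 3 and 11 (Nterm/Nterm) RNA counts and 37.8, 42.1 and 41.6 CPM (wt/wt) and 47.1, 45.3 and 49.9 CPM (Nterm/Nterm) of footprints, a ratio of 172 (107 to 295). H3C12 had 2, 1 and 0 (wt/wt) and 1, 0 and 0 (Nterm/Nterm) RNA counts and 14.4, 14.4 and 12.98 CPM (wt/wt) and 16.7, 16.4 and 18.6 CPM (Nterm/Nterm) of footprints, a ratio of 334 (114 to 1625). Each of these intervals lies above 100.

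The 9 H4 genes were the family with the least RNA relative to footprints, 0.975 ± 0.305 CPM of RNA against 588 ± 29.5 CPM of footprints in wt/wt (SD, n = 3). H4C1, H4C2 and H4C6 had no RNA count in any of 6 libraries. Their footprints were 15.9, 18.02 and 15.9 CPM (wt/wt) and 17.2, 15.8 and 14.9 CPM (Nterm/Nterm) for H4C1, 44.7, 50.7 and 55.6 CPM (wt/wt) and 51.9, 51.02 and 54.2 CPM (Nterm/Nterm) for H4C2 and 14.6, 13.9 and 11.97 CPM (wt/wt) and 11.5, 12.3 and 10.99 CPM (Nterm/Nterm) for H4C6. In wt/wt they were at least 324-fold, 980-fold and 262-fold higher, in that order. H4C5 had 1, 1 and 0 (wt/wt) and 2, 2 and 1 (Nterm/Nterm) RNA counts and the most footprints of the H4 genes, 167, 146 and 171 CPM (wt/wt) and 187, 163 and 165 CPM (Nterm/Nterm), a ratio of 5747 (1590.4 to 47464). H4C3 had 0, 0 and 2 (wt/wt) and 0, 1 and 2 (Nterm/Nterm) RNA counts and 129.9, 125 and 138 CPM (wt/wt) and 152, 143 and 150.3 CPM (Nterm/Nterm) of footprints, a ratio of 4687 (1297 to 38714). H4C4 had 0, 1 and 0 (wt/wt) and 2, 0 and 0 (Nterm/Nterm) RNA counts and 68.8, 64.5 and 74.1 CPM (wt/wt) and 68.9, 66.6 and 72.7 CPM (Nterm/Nterm) of footprints, a ratio of 4938 (886 to 195119), whose interval is wide because it rests on 1 RNA count. H4C9 had 0, 1 and 1 (wt/wt) and 0, 4 and 3 (Nterm/Nterm) RNA counts and 28.3, 29.00 and 32.9 CPM (wt/wt) and 32.2, 29.97 and 33.7 CPM (Nterm/Nterm) of footprints, a ratio of 1077 (298 to 8901). Together with H1-4, the genes H4C5, H4C3, H4C4 and H4C2 took the 5 highest ranks among 14786 transcripts in both genotypes by the ratio with that floor of 3 RNA counts. The other 2 H4 genes had somewhat more RNA: H4C8 had 14, 9 and 22 (wt/wt) and 16, 15 and 12 (Nterm/Nterm) RNA counts, 52.4, 48.2 and 52.6 CPM (wt/wt) and 52.2, 45.2 and 49.5 CPM (Nterm/Nterm) of footprints and a ratio of 81.1 (60.4 to 111). H4C16, earlier HIST4H4 and outside the main cluster, had 11, 2 and 6 (wt/wt) and 10, 9 and 6 (Nterm/Nterm) RNA counts, 66.2, 63.8 and 65.8 CPM (wt/wt) and 61.6, 61.4 and 55.5 CPM (Nterm/Nterm) of footprints and a ratio of 246 (157 to 409).

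The variants lay near the middle of all transcripts except for the H3.3 genes. H1-10, a replication-independent linker histone, had 212, 201 and 218 CPM (wt/wt) and 194, 214 and 199 CPM (Nterm/Nterm) of RNA and 279.7, 289 and 311 CPM (wt/wt) and 327, 312 and 285 CPM (Nterm/Nterm) of footprints, a ratio of 1.39 (1.36 to 1.43). It thus had somewhat more footprints than RNA on the CPM scale. H2AZ1 and H2AZ2 encode H2A.Z, a variant of nucleosomes near start sites. H2AZ1 had 102, 98.7 and 109 CPM (wt/wt) and 109.9, 111 and 116 CPM (Nterm/Nterm) of RNA and 138, 128 and 137 CPM (wt/wt) and 159, 140.3 and 142 CPM (Nterm/Nterm) of footprints, and H2AZ2 had 64.9, 68.05 and 70.4 CPM (wt/wt) and 75.9, 65.8 and 59.3 CPM (Nterm/Nterm) of RNA and 92.9, 95.4 and 97.6 CPM (wt/wt) and 103, 98.1 and 102 CPM (Nterm/Nterm) of footprints, ratios of 1.29 (1.25 to 1.34) and 1.41 (1.35 to 1.47). MACROH2A1 and MACROH2A2 encode H2A variants with a macro domain, found on silenced chromatin. MACROH2A1 had 149, 144 and 148 CPM (wt/wt) and 144, 149 and 141 CPM (Nterm/Nterm) of RNA and 199, 194 and 200.3 CPM (wt/wt) and 213, 212 and 197 CPM (Nterm/Nterm) of footprints, a ratio of 1.34 (1.30 to 1.38). MACROH2A2 had 144, 139 and 146 CPM (wt/wt) and 156, 162 and 169.8 CPM (Nterm/Nterm) of RNA and 174, 174 and 179 CPM (wt/wt) and 208, 204 and 201 CPM (Nterm/Nterm) of footprints, a ratio of 1.23 (1.19 to 1.26). H2AJ, an H2A variant gene outside the clusters, had 29.1, 28.2 and 25.6 CPM (wt/wt) and 22.6, 20.1 and 19.2 CPM (Nterm/Nterm) of RNA and 39.98, 43.1 and 42.05 CPM (wt/wt) and 35.2, 37.7 and 31.98 CPM (Nterm/Nterm) of footprints and the highest variant ratio, 1.52 (1.42 to 1.62).

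H3-3A and H3-3B encode the same protein, H3.3, which is placed into chromatin outside replication. H3-3A had 731, 714 and 757 CPM (wt/wt) and 757, 714 and 767 CPM (Nterm/Nterm) of RNA and 552, 431 and 498 CPM (wt/wt) and 566, 518 and 475 CPM (Nterm/Nterm) of footprints, a ratio of 0.665 (0.654 to 0.675). H3-3B had 774, 786 and 780.4 CPM (wt/wt) and 714, 683 and 719 CPM (Nterm/Nterm) of RNA but 102, 76.7 and 87.5 CPM (wt/wt) and 96.4, 86.97 and 83.05 CPM (Nterm/Nterm) of footprints, a ratio of 0.112 (0.109 to 0.116) in wt/wt and 0.125 (0.121 to 0.13) in Nterm/Nterm (log2 -3.14 ± 0.08 SE and -2.99, both called lower). H3-3B thus had the lowest ratio of the 38 genes. H2AX, the variant phosphorylated at DNA breaks, had 22.5, 22.4 and 24.3 CPM (wt/wt) and 23.5, 22.7 and 22.6 CPM (Nterm/Nterm) of RNA and 25.1, 28.1 and 30.8 CPM (wt/wt) and 28.04, 27.8 and 26.8 CPM (Nterm/Nterm) of footprints, a ratio of 1.21 (1.13 to 1.31), with the variants rather than the replication-dependent genes. The labels do not say how reads that match more than 1 transcript were assigned. Replication-dependent coding sequences resemble each other closely and the H3.3 genes have close copies, so values of single genes are less certain than class sums. They likewise do not say whether counts cover whole transcripts or coding sequences alone.

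**Figure D4:**
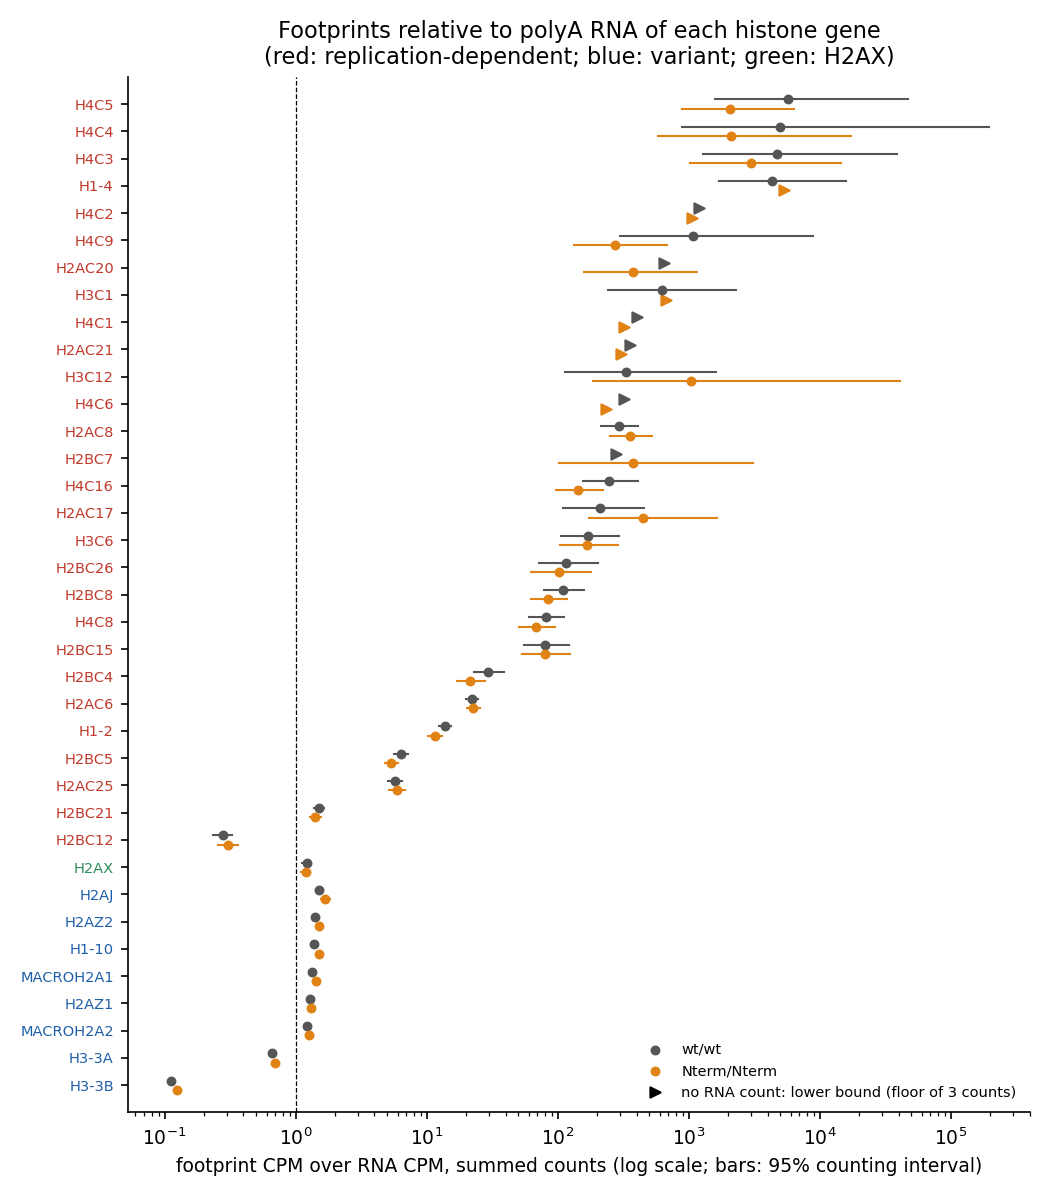
Footprint CPM over RNA CPM from counts summed over 3 libraries (x axis, log scale) for each of 37 histone genes, in wt/wt (grey) and Nterm/Nterm (orange); bars are 95% counting intervals, which cover counting error only, and triangles are lower bounds for genes with no RNA count. All replication-dependent genes but H2BC21 and H2BC12 lie above 5, and all variants drawn lie below 2.

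The authors' deposited table ranks the same genes highest. It rests on the same libraries and is the source of the gene names, so its ranks are no separate support. In the authors' deposited table the 5 highest wt/wt ratios, those of H1-4 (7691), H4C5 (4331), H4C3 (4292), H4C4 (2596) and H4C2 (2327), all belong to replication-dependent histones, as do 18 of the top 20 and 24 of the top 30, beside a median of 1.11. How the authors' deposited table handles RNA counts of 0 is not stated. Its unadjusted p for a genotype difference is under 0.05 for 3 of the 38 genes, against 4.67% of its 10932 transcripts. In the authors' deposited table the ratio of H2AC20 fell from 1274 to 297 (p = 0.00351), where the RNA counts are 0, 0 and 0 in wt/wt against 2, 2 and 1. H4C1 (p = 0.0202) and H4C6 (p = 0.0421) are the others in the authors' deposited table, and both have no RNA count in either genotype. By the edgeR fit H2AC20 did not pass (adjusted p = 0.879).

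The genotype comparison asked whether histone RNA or footprints differ in Nterm/Nterm neurons. Class sums barely moved: replication-dependent footprints were 1731, 1595 and 1615 CPM in Nterm/Nterm and overlapped those in wt/wt, and the RNA sums, 52.7, 55.4 and 52.6 CPM, overlapped too. Variant RNA was 2315, 2273 and 2332 CPM and variant footprints 1848, 1739 and 1639 CPM, which overlapped wt/wt as well. In RNA, 20 of the 38 genes had enough counts to be tested, and 1 was higher and 2 lower by edgeR's quasi-likelihood test at an adjusted p under 0.05, against 17.9% of all 14659 transcripts (7.25% higher, 10.6% lower). With the replicate number as a block, 4504 transcripts in place of 2624 were called. Of the replication-dependent genes 10 were tested and 0 called (0 at an unadjusted p under 0.05, 0 by DESeq2, which gave an adjusted p for 9), and 18 did not pass the filter on low counts.

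In footprints all 38 genes were tested, and 1 was higher and 2 lower, against 13.3% of all 13566 transcripts (4.36% higher, 8.91% lower). Among the replication-dependent genes 0 were higher and 1 was lower, and 5 of 28 had an unadjusted p under 0.05, beside 3710 of all 13566. Their median log2 change was 0.06, with 20 of 28 above 0, beside a median of 0.01 over all transcripts. In 9 of the 28 the libraries of the genotypes did not overlap, against 30.7% of all transcripts. By direction, 7 of the 28 lay above wt/wt in every Nterm/Nterm library, against 14.8% of all transcripts, and 2 lay below, against 15.9%. Both directions together are near the part of all transcripts, and none of the 7 was called at the adjusted threshold. Summed by family, the footprints of the 6 H2A genes were 356, 342 and 384 CPM in wt/wt and 414, 394 and 393 CPM in Nterm/Nterm, and those of the 3 H3 genes were 88.1, 90.5 and 88.9 CPM against 99.1, 92.6 and 101.9 CPM. The genotypes did not overlap in these families, while the sums of the H1, H2B and H4 genes overlapped. Among single transcripts 30.7% did not overlap either, and none of these H2A or H3 genes was called.

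H1-2 was the replication-dependent gene that changed. Its footprints, given above, were lower in every Nterm/Nterm library than in any wt/wt library (log2 change -0.38 ± 0.08 SE, adjusted p = 0.0049). Its RNA, at a log2 change of -0.14 ± 0.15, overlapped between genotypes (adjusted p = 0.545). The change of its footprints relative to RNA was not called (-0.24 ± 0.16, adjusted p = 0.9999 by edgeR's quasi-likelihood test). H1-4 footprints moved the other way without passing (log2 0.14 ± 0.07, adjusted p = 0.212), with no overlap between genotypes. The H3 genes H3C12 (0.31 ± 0.11, adjusted p = 0.0635) and H3C6 (0.23 ± 0.08, adjusted p = 0.054) had the largest positive changes and did not pass.

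Among the variants, H2AJ fell in RNA (log2 -0.42 ± 0.08, adjusted p = 0.00505) and in footprints (-0.26 ± 0.08, adjusted p = 0.0388), with no overlap between genotypes in either. MACROH2A2 rose in RNA (0.19 ± 0.04, adjusted p = 0.0147) and in footprints (0.22 ± 0.06, adjusted p = 0.0254), again with no overlap. H3-3B fell in RNA (-0.14 ± 0.04, adjusted p = 0.0194), while its footprints stood at 0.00 ± 0.09. The change of its footprints relative to RNA was not called (0.15 ± 0.11, adjusted p = 0.9999 by edgeR's quasi-likelihood test). H2AZ1 RNA was 0.12 ± 0.05 higher and did not pass (adjusted p = 0.112), except with the replicate block (0.0146). Of these calls, that of H2AJ in RNA held with each library left out. The RNA calls of MACROH2A2 and H3-3B were lost without wt/wt RNA library 1 (adjusted p = 0.0688 and 0.078) or 2 (0.0887 and 0.105). In footprints H2AJ was lost under DESeq2 (0.0649) and without wt/wt library 2 or 3 or Nterm/Nterm library 1 or 3 (up to 0.206), and MACROH2A2 without any library except wt/wt library 3 (up to 0.0902). H1-2 kept its call in footprints with each library left out.

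**Figure D5:**
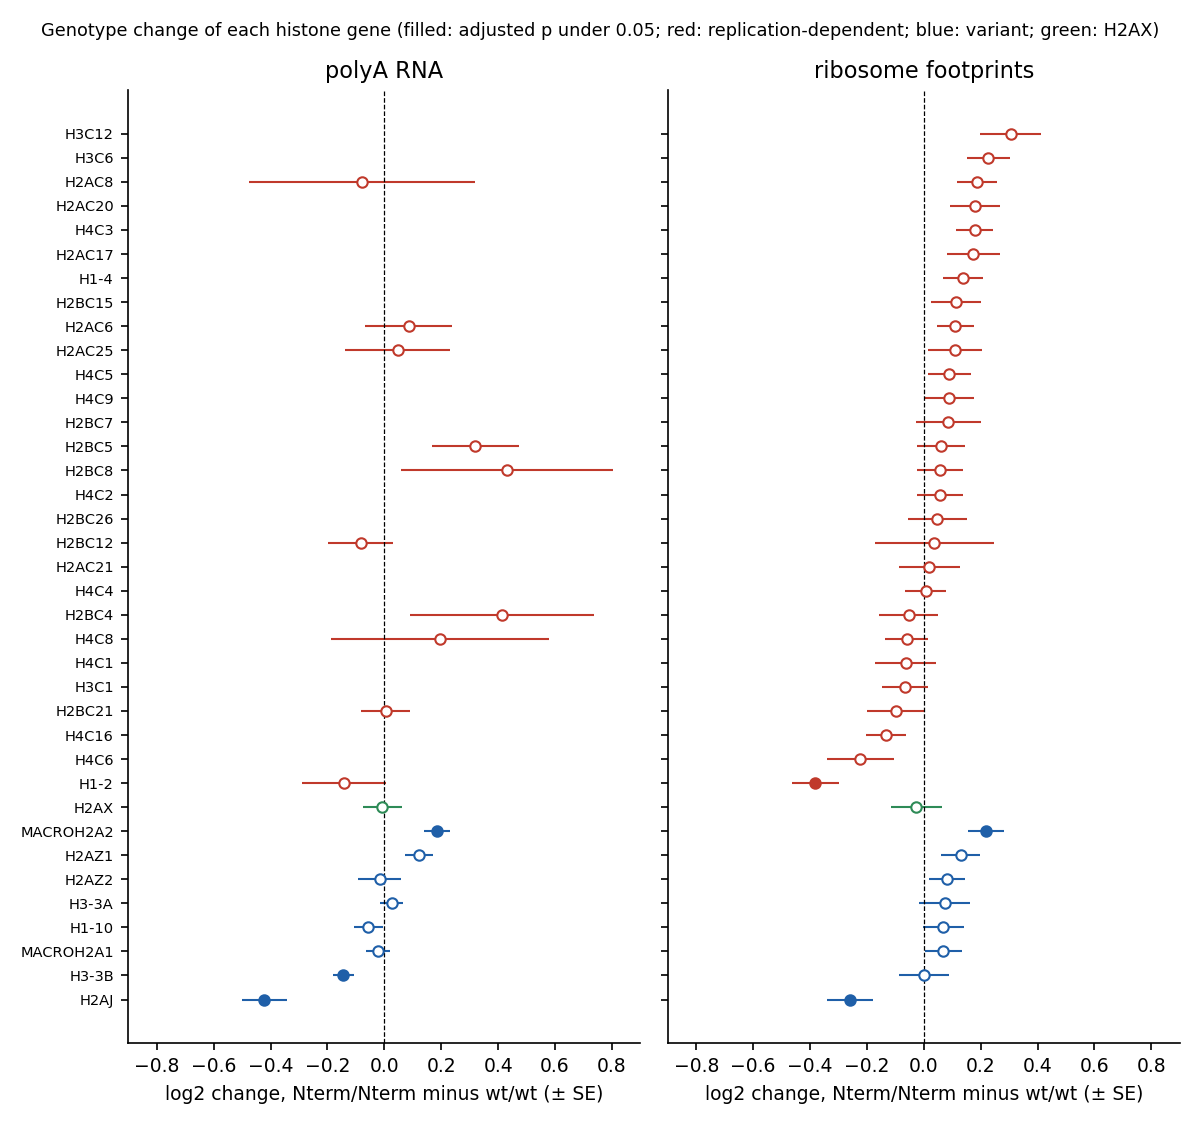
Log2 change from wt/wt to Nterm/Nterm with its SE (x axis) for each of the 37 histone genes drawn, where tested, in polyA RNA (left) and footprints (right); filled points passed an adjusted p of 0.05. In footprints H1-2, H2AJ and MACROH2A2 are filled, and in RNA H2AJ, H3-3B and MACROH2A2.

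The change of footprints relative to RNA between genotypes was called for 0 of the 38 genes by edgeR's quasi-likelihood test, against 0.0203% of 14786 transcripts (3 in all, 0.00676% higher and 0.0135% lower). H2AC20 and H3C1 were the 2 genes of 38 at an unadjusted p under 0.05 there, beside 680 of all 14786 transcripts, and both had at most 5 RNA counts over the libraries. DESeq2 was looked up for the 20 genes tested in RNA. It gave an adjusted p for 3 of them (H1-10, H3-3A and H3-3B) and called 0 of these. On simulated data this test recovered 14% of changes of 0.5 log2 and 96% of changes of 1 log2, so a change of 0.5 in a histone gene would mostly not be detectable here. For replication-dependent genes with RNA near 0 these rates do not hold. The SE of their change was larger, such as 0.95 log2 for H4C9 and 1.63 for H1-4, so a change of 1 log2 could be missed too.

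Other genes of the pathway gave the setting. Of 26 genes of histone mRNA processing, 1 was higher in Nterm/Nterm RNA and 2 lower, against 7.25% and 10.6% of all transcripts. Their median log2 change was 0.00. SLBP, the stem-loop binding protein, fell (-0.21 ± 0.06, adjusted p = 0.0346), as did the Sm protein gene SNRPB (-0.21 ± 0.05, adjusted p = 0.00908), and SRRT, which links the cap-binding complex to RNA processing, rose (0.28 ± 0.05, adjusted p = 0.00383). In footprints SRRT was higher and no other gene of the list was called. NPAT, which activates transcription of the replication-dependent genes, stood at 0.04 ± 0.07 in RNA (adjusted p = 0.717). Of 34 histone chaperone and exchange genes, HIRA, the chaperone that deposits H3.3, was higher in RNA (0.17 ± 0.05, adjusted p = 0.0363) and in footprints (0.35 ± 0.08, adjusted p = 0.0072), and no other was called. Over all transcripts 17.9% were called in RNA and 13.3% in footprints.

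Genes of dividing cells were present, and a few of them were lower in Nterm/Nterm. Of 25 S phase genes with a name, 4 were lower in RNA and 0 higher, against 10.6% and 7.25% of all transcripts, among them the replication clamp gene PCNA (-0.33 ± 0.07, adjusted p = 0.00899) and the thymidylate synthase gene TYMS (-0.52 ± 0.08, adjusted p = 0.00142), and 4 were lower in footprints, against 8.91%. The other 21 did not pass in RNA. The summed RNA of all 25 was 638 to 656 CPM in wt/wt and 567 to 598 CPM in Nterm/Nterm. Of 20 mitosis genes 3 had a name (CCNB1, TPX2 and HMGB2), and HMGB2 was lower in RNA (-0.89 ± 0.12, adjusted p = 0.000763). MKI67 and TOP2A were among those without one, so their levels were not analysed here. Whether these genes and the histone footprints move together was not tested.

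Markers of cell types moved with the genotype too, beside 7.25% of all transcripts higher in RNA and 10.6% lower. In RNA, 8 of 10 mesenchymal markers were lower and 1 higher, with summed levels of 4682 to 5733 CPM in wt/wt and 3155 to 4089 CPM in Nterm/Nterm. Among the 9 neural progenitor markers 6 fell and 1 rose (1235 to 1325 CPM against 981 to 1122 CPM), and of 7 pluripotency markers 2 were lower (718 to 792 CPM against 556 to 635 CPM). Of 16 neuron markers 11 were higher and 0 lower, 18407 to 19751 CPM against 20968 to 22892 CPM. The part of these cell types in the changes of H1-2, H2AJ, MACROH2A2 and H3-3B was not tested, and in bulk samples fewer cells of a type and less RNA per cell cannot be told apart.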

How the data were processed

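RNA-seq of polyA RNA and Ribo-seq were each measured in 3 wt/wt and 3 Nterm/Nterm libraries. The authors deposited raw counts per Ensembl transcript. The submitters' processing notes list Salmon 1.4.0, limma, Bowtie2 2.3.4.3, edgeR, UMI-tools 1.0.1 and cutadapt 2.4 and the build GRCh37, without saying which step each served. The authors also deposited footprint-to-RNA ratios with their SDs and unadjusted p-values for 10932 transcripts, per the file headers, and this table gave the gene names.

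The test on the counts was that of edgeR 4.0.16 under R 4.3.3 (quasi-likelihood test, TMM scaling, filterByExpr, two-sided, Benjamini-Hochberg adjustment over all transcripts tested, threshold 0.05). RNA and footprints were fitted separately. A fit of all 12 libraries, its TMM factors computed per assay, gave footprints against RNA and its change with genotype. CPM divide counts by TMM-scaled library size. Ratios for single genes use counts summed over 3 libraries. With 10 counts the counting error is 31.6%, with 1000 it is 3.16%. Same-numbered wt/wt and Nterm/Nterm RNA libraries deviated together (correlations 0.332 to 0.634), so the replicate block is given beside RNA results. For footprints (-0.013 to 0.336) they did not all do so. Same-numbered RNA and footprint libraries correlated at 0.29 to 0.577 in Nterm/Nterm and 0.026 to 0.324 in wt/wt. The fit of all 12 libraries was therefore also run with the block, and its main results are without it. On simulated data with known changes, 60% of changes of 0.5 log2 and 100% of changes of 1 log2 were recovered in RNA, and 56% and 100% in footprints.

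Every gene that the name rule finds is named, except 1 that is counted in the class sums and is not reported here. Of the other lists the text names up to 4 called members a direction, those with the largest change, or well-known members by value. Genes and lists were chosen with earlier results of these data known. Another list, histone genes outside the name rule, matched 0 of its 9 entries. Alternatives were DESeq2 1.42.0, RLE scaling, no filter, TMM over all libraries, a replicate block, the genotype tag and leaving out each library. Promoter windows are RefSeq's (GRCh38.p14), where 34 of the 38 genes matched by symbol.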

Additional observations from a re-analysis of the deposited data

How the results depend on the processing

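The count of 26 replication-dependent genes called higher in footprints than in RNA was 26 in both genotypes under every alternative run. These are the 26 genes that could be named only through many footprints, so the count had little room to change. Scaling over all 12 libraries together lowered the median log2 ratio of all transcripts in wt/wt from 0.147 to 0.00633. The class ratios were then 27.2 (wt/wt) and 27.1 (Nterm/Nterm) for replication-dependent genes and 0.635 and 0.666 for variants. Leaving H2BC12 and H2BC21 out of the sum, an alternative chosen after seeing the data, gave 65.5 and 63.5, and the genotype tag gave 0.738 for the wt/wt variants. With each library left out in turn, the ratios were 29.3 to 30.6 and 30.02 to 31.3 for replication-dependent genes, and 0.695 to 0.714 and 0.734 to 0.777 for variants.

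Pairing the libraries by replicate number, as a block, raised the calls of genotype change to 4504 in RNA, 2317 in footprints and 20 in footprints relative to RNA. With DESeq2 the last was 27, but DESeq2 gave an adjusted p for only 1026 transcripts, against 14786 by edgeR. The block added calls of H3C12 (0.30, adjusted p = 0.0477) and H3C6 (0.23, adjusted p = 0.031) in footprints and of H2AZ1 in RNA, and no other histone gene changed its call. H3C12 (0.0459) and H3C6 (0.0462) also passed without the low-count filter, H2AC8 (0.049) and H4C3 (0.0498) without wt/wt footprint library 3, and H2AZ1 RNA (0.0476) without wt/wt RNA library 3. With each library left out, 841 to 2851 transcripts were called in RNA, 954 to 2045 in footprints and 2 to 4 in footprints relative to RNA. The lowest counts were without wt/wt RNA library 1 (841) or 2 (964), and without wt/wt footprint library 1 (954) or 2 (978) or Nterm/Nterm footprint library 3 (965). The cause was not tested.

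Under the genotype tag of the Ribo-seq samples the footprint changes reverse by construction: H1-2 0.38, H2AJ 0.26 and MACROH2A2 -0.22. The change relative to RNA was then called for 4150 transcripts, with H1-2 at 0.52, H2AZ1 at -0.25, MACROH2A2 at -0.40 and H2AJ at 0.68. RNA counts near 0 limit the ratios of single replication-dependent genes, 13 of which had at most 10 RNA counts over 6 libraries.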

Other observations

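A few named genes outside the histones shared the pattern of many footprints and little polyA RNA. Of 6 such genes with a ratio above 10 in wt/wt, 3 are the neurogenins, proneural transcription factors of which NEUROG2 is the human gene for the Ngn2 that the cells were made to overexpress. NEUROG2 had 96, 93 and 120 RNA counts and 1919, 2330 and 2250 footprints in wt/wt. NEUROG1 had no RNA count in any of 6 libraries and 253, 300 and 323 footprints in wt/wt, and NEUROG3 had none and 570, 636 and 661. In Nterm/Nterm the footprints were 2060, 2080 and 2429 for NEUROG2, 293, 278 and 312 for NEUROG1 and 590, 578 and 643 for NEUROG3. The other 3 are PDK3, POMK and ZNF460. Another 45 transcripts with a ratio above 10 in wt/wt have no name, so the pattern was not confined to named genes. Among the genes of histone mRNA processing, SNRPD3, a subunit of the Sm ring, showed the opposite: 97.8 ± 2.13 CPM of RNA and 0.913 ± 0.211 CPM of footprints in wt/wt (SD, n = 3). These genes were singled out after their values were seen.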
